A study of Mus musculus with 2 samples.

Results

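The acute phase and antimicrobial genes described here were Saa3, Hp, Orm1, Lcn2, Slpi, S100a8 and S100a9, 7 of the 33904 genes counted in single-cell RNA-seq of mouse dorsal skin. They were chosen by their measured values in these same libraries, so their levels are given as a description with no test, and their rows were found by gene symbol in the count matrix of each library. The study asked how inflamed skin of an atopic dermatitis (AD) model differs from control skin. Both groups were female C57BL/6J mice aged 7 weeks with depilated backs, treated daily for 10 days on a 2 cm × 2 cm area and sampled on day 10. The Ctrl group received 100% ethanol. The AD group received 4.5 nmol of MC903 (calcipotriol, a vitamin D analog that induces AD-like inflammation) per application in 100% ethanol. Each group was 1 library, the number of mice in a library is not given in the sources used here, and no difference between the libraries has a replicate check.

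Acute phase proteins are plasma proteins that rise in inflammation, classically made by the liver under the control of interleukin-6 (IL-6) and interleukin-1, but several are also made in skin, fat and other tissues. Saa3 is the serum amyloid A made mainly outside the liver, Hp encodes haptoglobin, which binds free hemoglobin, and Orm1 encodes orosomucoid, a carrier glycoprotein. The antimicrobial members act more locally. Lcn2 binds bacterial siderophores and withholds iron, Slpi is an inhibitor of neutrophil serine proteases with antimicrobial activity, and S100a8 and S100a9 encode the subunits of calprotectin, a metal-binding protein that makes up a large share of neutrophil cytoplasm.

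The members lie on 5 chromosomes (GENCODE release M21, GRCm38). Saa3 is at chr7:46711998-46715700, Hp at chr8:109575128-109579172, Orm1 at chr4:63344560-63348163, Lcn2 at chr2:32384633-32388252 and Slpi at chr2:164354070-164389095. S100a8 (chr3:90668978-90670035) and S100a9 (chr3:90692632-90695721) are neighbours on opposite strands with 22596 bases between them. A promoter sequence was found for 5 of the 7 members in the RefSeq table (GRCm38.p6), and Hp and Orm1 had no entry. Because C/EBP and STAT factors are known regulators of acute phase genes, the 250 bases before each start were searched on both strands for C/EBP letters (TTGCNNAA) and STAT letters (TTCNNNGAA). The C/EBP letters were present in 4 of the 5 windows, those of Saa3, Lcn2, Slpi and S100a9, and in 9.56% of 32851 mouse promoters of the same length. The STAT letters (7.02% of all promoters) were in none of the 5, which says only that these letters are absent from these windows. A match is a description of the sequence and not a measured binding site. For Saa3, the member with the largest ratio of AD to Ctrl in dermal fibroblasts, the stretch before its annotated exon is shown (chr7:46715701-46715926, minus strand), with the C/EBP match at bases -99 to -92 before the start in capitals, where it reads on the opposite strand.
Saa3: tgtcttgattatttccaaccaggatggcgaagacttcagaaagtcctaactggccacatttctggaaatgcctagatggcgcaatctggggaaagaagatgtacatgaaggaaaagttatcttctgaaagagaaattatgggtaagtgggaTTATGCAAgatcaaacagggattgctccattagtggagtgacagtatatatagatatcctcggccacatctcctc
For the other members with a match, 30 bases around it are shown in the direction of the gene, with the match in capitals, at chr2:32387937-32387966, chr2:164356728-164356757 and chr3:90695939-90695968, all on the minus strand.
Lcn2: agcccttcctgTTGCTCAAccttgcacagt
Slpi: gaatttgtaTTGAGCAAtaggttagagttt
S100a9: ggtaggctgtcTTGCTTAAgatttgggcgg
The Lcn2 match lies within an exon of an alternative GENCODE transcript, and the Slpi window lies inside the longer GENCODE gene model.

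Levels are given as UMIs (unique molecular identifiers, 1 for each captured transcript molecule) and as CPM, the UMIs of a gene per 1000000 UMIs of the same cells. After the study's cell filter (200 to 6000 genes and at most 10% mitochondrial UMIs), 11399 Ctrl cells (105195951 UMIs, median 7813 per cell) and 8179 AD cells (61645227 UMIs, median 6330) were kept. Cells were assigned to a type by a gate on 8 marker genes per type, none of them a member, which left 14.1% of Ctrl and 17.6% of AD cells unassigned. The gates held 5908 Ctrl and 4835 AD dermal fibroblasts (dFBs), 1999 and 404 keratinocytes (KCs), 363 and 392 endothelial cells, 5 and 58 neutrophils, 9 and 50 basophils, and 0 and 88 adipocytes. Cells with 2 types' markers and 35 barcodes present in both libraries remained in the data, and the doublet caller marked 395 Ctrl cells and 0 AD cells, so doublets were not removed. Intervals are 95% and cover counting error only, not the spread between mice. A share of cells with a UMI also depends on depth and on free RNA, so it is given beside the share after every cell was thinned to 1000 UMIs and beside the share in T cells (median 5856 UMIs in AD), which are not known to make these genes.

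Summed over all kept cells, 6 of the 7 members were higher in the AD library and 1 was lower. Hp had 286 UMIs (2.72 CPM) in Ctrl and 49993 (811.0 CPM) in AD, a log2 ratio of 8.22 (8.05 to 8.39). Saa3 had 103 UMIs (0.979 CPM) in Ctrl and 12237 (198.5 CPM) in AD, a log2 ratio of 7.66 (7.38 to 7.96). S100a9 went from 9.40 to 211.8 CPM, S100a8 from 7.76 to 134.8 CPM, Lcn2 from 12.5 to 170.7 CPM and Slpi from 4.01 to 48.6 CPM, log2 ratios of 4.49, 4.12, 3.77 and 3.60. Orm1 went the other way, from 4586 UMIs (43.6 CPM) to 369 (5.99 CPM), a log2 ratio of -2.86 (-3.02 to -2.71). In AD most UMIs of 5 members lay in 1 cell type each, dFBs for Saa3, adipocytes for Hp, KCs for Orm1 and neutrophils for both S100a8 and S100a9, and the share of these types among the cells differed between the libraries. The total of a gene therefore mixes its level per cell type with the number of such cells.

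**Figure D1:**
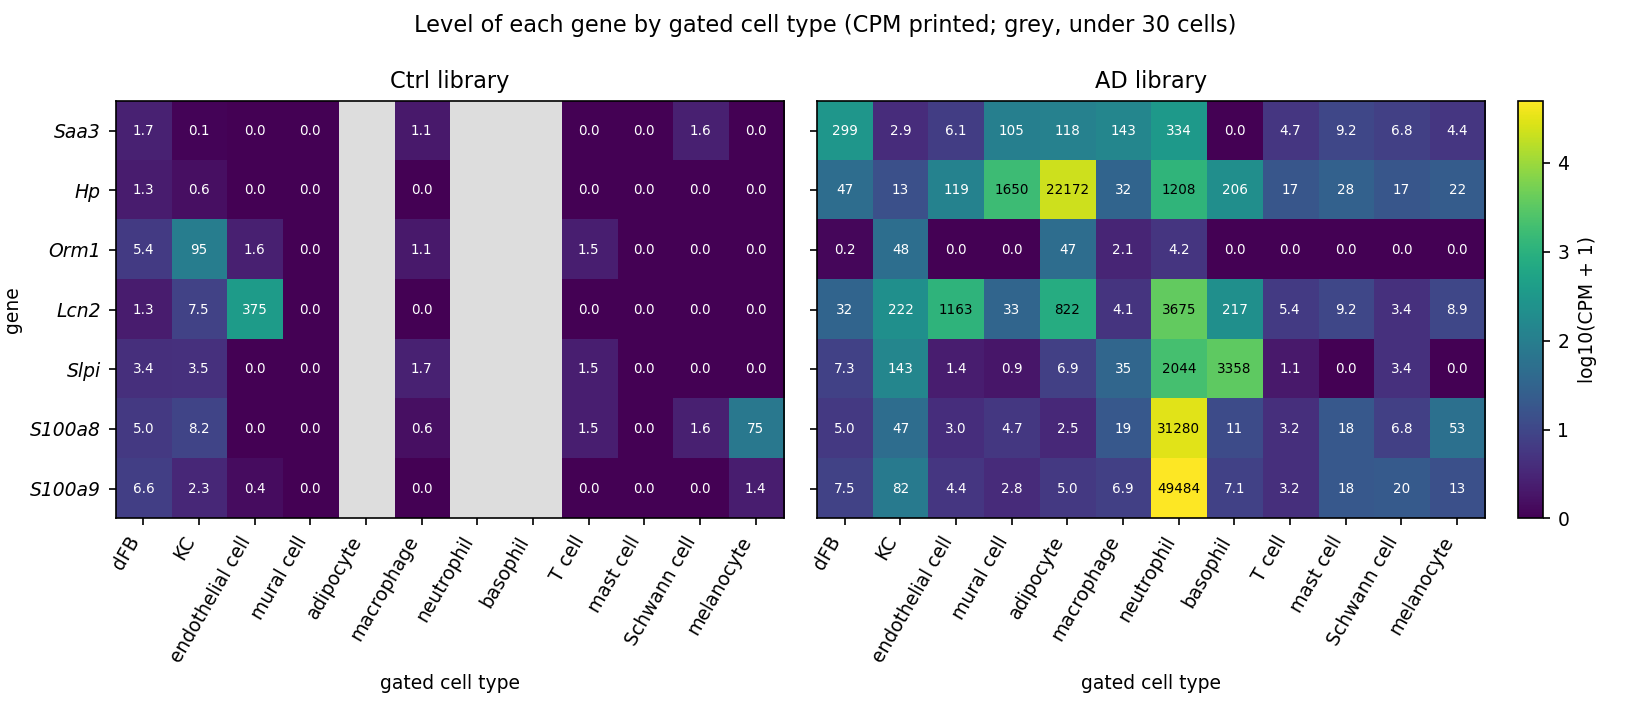
Heat map of the CPM of the 7 genes (rows) in 12 gated cell types (columns) of the Ctrl and AD libraries. Color is log10(CPM + 1), the printed value is CPM, and gates with fewer than 30 cells in a library are grey. In AD the highest value of Hp is in adipocytes (22172 CPM) and the highest values of S100a8 and S100a9 are in neutrophils (31280 and 49484 CPM), while Saa3 is at 333.7 CPM in neutrophils and 298.7 CPM in dFBs.

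**Figure D2:**
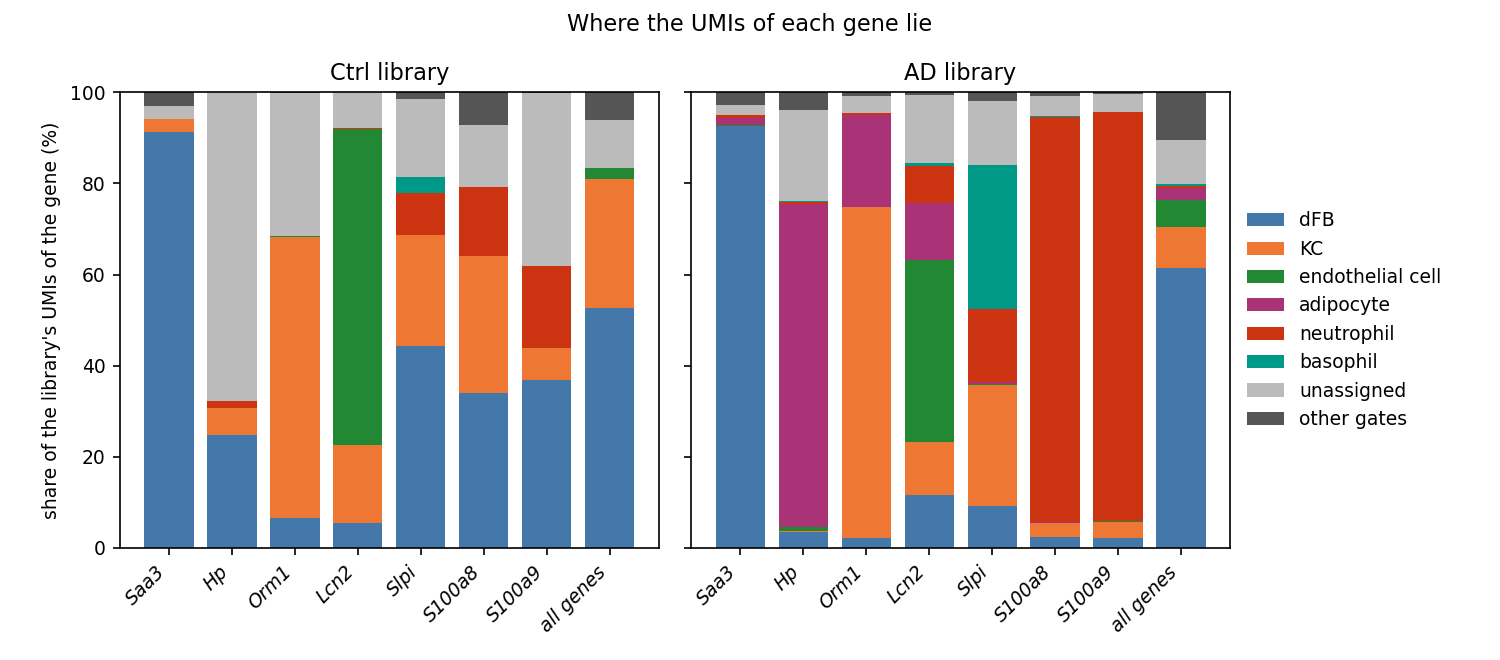
Stacked bars of the share (%) of each gene's UMIs that lay in each gate, for the Ctrl and AD libraries, with the share of all genes' UMIs as the last bar. In AD, dFBs held 92.5% of Saa3 UMIs, adipocytes 70.9% of Hp UMIs, endothelial cells 40.0% of Lcn2 UMIs and neutrophils 89.7% of S100a9 UMIs.

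Most Saa3 UMIs of each library lay in dFBs. In dFBs it had 94 UMIs in Ctrl (1.69 CPM, 1.37 to 2.07) and 11322 UMIs in AD (298.7 CPM, 293.2 to 304.2), a log2 ratio of 7.46 (7.17 to 7.77). The AD dFBs held 92.5% of the library's Saa3 UMIs and 61.5% of the UMIs of all genes. Few of them carried it: 424 of 4835 AD dFBs (8.77%, 7.99 to 9.60) and 11 of 5908 Ctrl dFBs (0.186%) had a Saa3 UMI, and after thinning the shares were 4.41% and 0.0687%. In AD T cells the share was 3.23% and 0.746% after thinning, with 13 UMIs in 13 cells and never more than 1 in a cell. The level within carrying dFBs was very uneven, with a median of 3 UMIs, a highest cell of 424 UMIs, and 28 cells that held 50% of all dFB Saa3 UMIs.

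Among the dFB sub-gates of the AD library, Saa3 was highest in pre-adipocyte and reticular dFBs (525.7 CPM, 509.3 to 542.5) and in peri-follicular and papillary dFBs (501.3 CPM, 483.7 to 519.4), whose intervals overlapped. It followed in dFBs of no sub-gate (349.9 CPM), in interstitial dFBs, the HI-AP class (99.3 CPM), and in Areg dFBs (27.0 CPM), and the intervals of these did not overlap. Such intervals do not allow for UMIs clumped in few cells, and 1 interstitial cell held 424 of the 1374 UMIs of its class. By share of cells with a Saa3 UMI, interstitial (5.53%, 4.51 to 6.69) and Areg dFBs (6.46%, 4.04 to 9.71) overlapped. The share of cells with a Saa3 UMI had the same leading sub-gates, 14.3% of pre-adipocyte and reticular and 11.3% of peri-follicular and papillary dFBs against 5.53% of interstitial dFBs. In Ctrl the same sub-gates held 15, 0 and 77 Saa3 UMIs, or 8.90, 0 and 2.41 CPM. The ratio of the interstitial class was 5.36 on the log2 scale (5.03 to 5.72), and that of the pre-adipocyte and reticular class was 5.88 (5.16 to 6.72). The peri-follicular and papillary class, at 0 UMIs in Ctrl, was 1018-fold higher in AD when set against 3 counts over the gate. That value is not a firm lower bound, since single Ctrl dFBs held up to 29 Saa3 UMIs. The makeup of the dFBs also differed, with 884 pre-adipocyte and reticular cells in AD and 224 in Ctrl. The markers of that sub-gate include Pparg, Lpl and Fabp4.

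**Figure D3:**
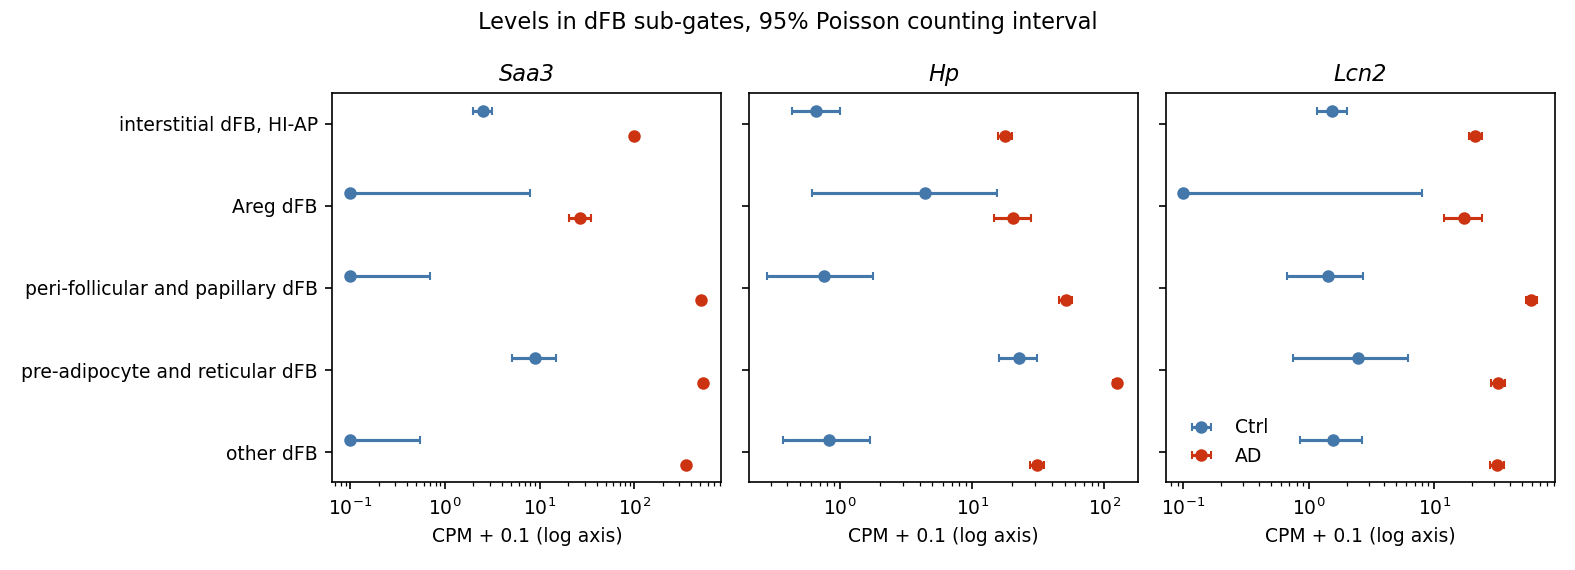
Level of Saa3, Hp and Lcn2 (CPM + 0.1, log axis) in 5 dFB sub-gates of the Ctrl and AD libraries, with 95% Poisson counting intervals. Every AD point lies to the right of its Ctrl point, and for Saa3 the AD points run from 27.0 CPM in Areg dFBs to 525.7 CPM in pre-adipocyte and reticular dFBs.

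Outside dFBs, AD Saa3 UMIs sat in a few cells of several types. Macrophages had 207 UMIs in 14 of 173 cells (142.9 CPM) against 2 UMIs in 396 Ctrl macrophages. Adipocytes had 188 UMIs in 13 of 88 cells (117.6 CPM). AD neutrophils had the highest CPM of any AD cell type (333.7, 264.2 to 415.8), with an interval that overlapped that of dFBs, but from 79 UMIs in 6 of 58 cells, 45 of them in 1 cell. Of the 112 UMIs in mural cells 71 lay in 1 cell that also held 479 Hp UMIs and 4 dFB markers. Endothelial cells (6.09 CPM, 3.82 to 9.22), T cells (4.66 CPM, 2.48 to 7.96) and KCs (2.88 CPM, 1.65 to 4.68) had low levels whose intervals overlapped. In KCs, 16 cells had 1 UMI each and after thinning 0 of 370 had one, which allows a share of up to 0.992% by the exact interval, so no Saa3 above the T cell level was detectable in KCs.

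Hp was dominated by adipocytes. The 88 AD adipocytes held 35432 Hp UMIs (22172 CPM, 21942 to 22404), every one of them carried it, and the median was 370.5 UMIs per cell. They made up 70.9% of the library's Hp UMIs with 2.59% of the UMIs of all genes. No Ctrl cell passed the adipocyte gate, so the adipocyte level had no Ctrl value. A further 20.1% of AD Hp UMIs lay in unassigned cells. In Ctrl 177 of the 194 UMIs in unassigned cells lay in 1 cell with 7 adipocyte, 7 KC and 5 dFB markers. The AD library had both the higher summed Hp and the gated adipocytes. A change in adipocyte number, in how many were released by digestion and in Hp per adipocyte cannot be told apart.

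Neutrophils followed adipocytes and mural cells in Hp level. AD neutrophils had 286 Hp UMIs (1208 CPM, 1072 to 1356) in 50 of 58 cells, with at most 18 UMIs in a cell, and the 5 Ctrl neutrophils had 4 UMIs. The mural value (1764 UMIs, 1650 CPM) rested on 2 cells that held 50% of it, 1 of them with 755 UMIs. Likewise 308 of 430 endothelial UMIs and 51 of 58 basophil UMIs each lay in 1 cell. In dFBs Hp went from 71 UMIs (1.28 CPM) to 1771 UMIs (46.7 CPM), a log2 ratio of 5.19 (4.85 to 5.55). Of the AD dFBs 12.4% had an Hp UMI and 2.51% after thinning, close to the 9.45% and 1.99% of AD T cells, while 14 dFBs held 50% of the UMIs. The dFB Hp was thus made of a low count spread over many cells, near the T cell share, and of a small number of high cells. The pre-adipocyte and reticular dFBs had the highest dFB level in each library, 22.6 CPM in Ctrl and 123.6 CPM in AD (log2 ratio 2.45, 1.99 to 2.96). These levels rested on few cells, with 38 UMIs in 3 of 224 Ctrl cells and 3 AD cells that held 50% of 911 UMIs. The dFBs with most Hp, at 18 UMIs in Ctrl and 325 in AD, also held 3 and 4 adipocyte markers. In KCs Hp was 0.572 CPM in Ctrl and 12.8 CPM in AD, and the thinned share in AD, 1.62%, did not exceed that of T cells.

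Orm1 was the member with the lower AD total, and most of its UMIs lay in KCs, 61.8% in Ctrl and 72.6% in AD. Ctrl unassigned cells held a further 31.5%, with 1445 UMIs in 98 of 1609 cells (130.1 CPM, above the KC level), and had 14 UMIs (2.30 CPM) in AD, a log2 ratio of -5.82 (-6.69 to -5.07). In KCs it had 2835 UMIs in Ctrl (95.4 CPM, 91.9 to 99.0) and 268 in AD (48.2 CPM, 42.6 to 54.4), a log2 ratio of -0.98 (-1.17 to -0.80). Within Ctrl KCs it belonged to the suprabasal cells, with 2632 UMIs (378.7 CPM) in 272 of 365 cells (74.5%), against 9.99 CPM in basal KCs, 11.7 CPM in KCs of no sub-gate and 1.96 CPM in follicle KCs. Only 8 AD cells passed the suprabasal gate, and 6 of them carried Orm1 (143 UMIs, 501.1 CPM, with 124 UMIs in 1 cell). In basal KCs the direction was opposite to that of all KCs: 138 UMIs (9.99 CPM) in 1006 Ctrl cells and 115 UMIs (23.4 CPM) in 349 AD cells, a log2 ratio of 1.23 (0.86 to 1.59). Of these basal KCs 8.15% in Ctrl and 15.2% in AD carried Orm1. After thinning the shares were 1.01% (0.485 to 1.85) and 1.19% (0.326 to 3.03), with overlapping intervals. The share of suprabasal cells moved with the KC value, from 365 of 1999 Ctrl KCs to 8 of 404 AD KCs. In dFBs Orm1 had 297 UMIs in Ctrl, 100 of them in 1 cell with 5 dFB and 3 KC markers, and 8 in AD, a log2 ratio of -4.66 (-5.89 to -3.67). AD adipocytes had 75 UMIs (46.9 CPM) in 29 of 88 cells. Orm1 has the near-identical copies Orm2 and Orm3, and reads that match more than 1 of them could be lost or misassigned.

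Lcn2 was found in several cell types of the AD library and was the only member with a high level in Ctrl endothelial cells. Endothelial cells had 913 Lcn2 UMIs in Ctrl (374.5 CPM, 350.6 to 399.6) and 4203 in AD (1163 CPM, 1129 to 1199), a log2 ratio of 1.64 (1.53 to 1.74). Of the Ctrl endothelial cells 54.5% carried it (25.9% after thinning) and of the AD cells 76.3% (52.7%), against none of 557 Ctrl T cells and 1.99% of AD T cells. They held 69.4% of the library's Lcn2 UMIs in Ctrl and 40.0% in AD, as other cell types joined. The count was spread, with 43 endothelial cells holding 50% of the UMIs in each library.

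KCs and dFBs had the larger Lcn2 ratios from low Ctrl levels. In KCs Lcn2 went from 224 UMIs (7.54 CPM) to 1233 UMIs (221.8 CPM), a log2 ratio of 4.88 (4.67 to 5.09), with 3.90% and 29.2% of cells carrying it and 0.814% and 8.11% after thinning. In basal KCs, the KC class with many cells in each library, the levels were 14.4 CPM in Ctrl and 213.6 CPM in AD (log2 ratio 3.89, 3.67 to 4.12). In dFBs it went from 72 UMIs (1.30 CPM) to 1209 UMIs (31.9 CPM), a log2 ratio of 4.62 (4.28 to 4.98), and 94 AD dFBs held 50% of the UMIs, so the dFB signal was more even than that of Saa3. Of the 72 Ctrl UMIs 25 lay in 1 cell with 8 dFB and 6 neutrophil markers. Without the cell of each library with most Lcn2 UMIs the dFB log2 ratio was 5.20. Peri-follicular and papillary dFBs led at 59.6 CPM (53.6 to 66.0), above pre-adipocyte and reticular dFBs at 32.2 CPM (28.2 to 36.5). Of the AD dFBs 2.32% carried Lcn2 after thinning, against 0.249% of AD T cells. In the AD library the order of levels was neutrophils (3675 CPM), endothelial cells (1163 CPM), adipocytes (822.3 CPM), then KCs (221.8 CPM, 209.6 to 234.6) and basophils (216.5 CPM, 165.6 to 278.1), whose intervals overlapped, then mural cells (32.7 CPM, 28 of 35 UMIs in 1 cell) and dFBs (31.9 CPM). Macrophages (4.14 CPM) and T cells (5.37 CPM) were low and overlapped.

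Slpi was a transcript of granulocytes and AD KCs. AD basophils had the highest level, 946 UMIs (3358 CPM, 3147 to 3579) in 40 of 50 cells, and AD neutrophils had 484 UMIs (2044 CPM, 1866 to 2235) in 49 of 58 cells. The 9 Ctrl basophils had 15 UMIs, 13 of them in 1 cell. The 5 Ctrl neutrophils all carried it with 39 UMIs (5068 CPM), 22 of them in 1 cell. In KCs Slpi went from 103 UMIs (3.46 CPM) to 797 UMIs (143.4 CPM), a log2 ratio of 5.37 (5.07 to 5.68), and the carrying share from 1.55% to 23.0% (0.254% and 5.14% after thinning). The KC signal was concentrated, with 7 AD cells holding 50% of it. Basal KCs had 4.34 CPM in Ctrl and 139.6 CPM in AD (log2 ratio 5.01, 4.62 to 5.41). Slpi was low elsewhere, at 7.26 CPM in AD dFBs (3.37 CPM in Ctrl, where 85 of 187 UMIs lay in 1 cell) and 1.07 CPM in AD T cells. Its 35.2 CPM in AD macrophages rested on 1 cell with 29 of 51 UMIs.

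S100a8 and S100a9 followed the neutrophils. The 58 AD neutrophils held 7406 S100a8 UMIs (31280 CPM, 30572 to 32001) and 11716 S100a9 UMIs (49484 CPM, 48592 to 50388), which were 89.1% and 89.7% of the library's UMIs of these genes from cells with 0.384% of the UMIs of all genes. S100a8 was found in 53 and S100a9 in 50 of the 58 cells, with medians of 98 and 185 UMIs per carrying cell. The 5 Ctrl neutrophils all carried both, with 124 S100a8 UMIs (16112 CPM) and 177 S100a9 UMIs (22999 CPM). A single Ctrl cell held 66 of these S100a8 and 124 of these S100a9 UMIs. Neutrophil number and level per cell both enter the totals, and 5 Ctrl cells and 58 AD cells passed this gate.

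Outside neutrophils, the S100a8 and S100a9 values of whole gates were often set by 1 cell that carried the markers of 2 types. In dFBs S100a8 had 277 UMIs in Ctrl and 189 in AD (4.99 CPM in each, log2 ratio -0.00, -0.28 to 0.27), and S100a9 had 364 and 285 (6.56 and 7.52 CPM, log2 ratio 0.20, -0.03 to 0.42). A single Ctrl cell with 8 dFB and 6 neutrophil markers held 231 of the S100a8 and 349 of the S100a9 UMIs. Without that cell and its AD counterpart the log2 ratios were 2.52 and 4.72. In KCs S100a8 had 245 and 259 UMIs (8.24 and 46.6 CPM, log2 ratio 2.5, 2.24 to 2.76) and S100a9 had 69 and 455 (2.32 and 81.9 CPM, log2 ratio 5.14, 4.77 to 5.53). A single AD cell with 8 KC and 6 neutrophil markers held 229 of these S100a8 and 422 of these S100a9 UMIs. Without the cell of each library with most UMIs of the gene the log2 ratios were 0.015 and 1.76, and with Leiden clusters in place of gates they were below 0 (-0.58 and -0.43). After thinning 0.507% and 0.886% of AD dFBs carried S100a8 and S100a9, against 0.249% of AD T cells for each.

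The ratio of S100a8 to S100a9 UMIs was 0.632 (0.614 to 0.651) in AD neutrophils and 0.701 (0.552 to 0.886) in Ctrl neutrophils, where 1 cell held most UMIs of each gene. In AD dFBs it was 0.663 (0.549 to 0.80), in AD endothelial cells 0.688 (0.289 to 1.58), in AD KCs 0.569 (0.487 to 0.665) and in AD unassigned cells 0.707 (0.618 to 0.807), all with intervals that overlapped that of the AD neutrophils. The KC and unassigned ratios were largely those of 1 cell each. A KC with 6 neutrophil markers held 229 of 259 S100a8 and 422 of 455 S100a9 UMIs. An unassigned cell with 7 neutrophil markers held 299 of 381 and 344 of 539. The interval of the S100a8 to S100a9 ratio lay apart from that of the AD neutrophils in 4 further classes of cells. Ctrl unassigned cells had a lower ratio, 0.297 (0.238 to 0.368). Ctrl KCs had 3.55 (2.71 to 4.71), with 9 (5.17 to 16.9) in basal and 2.18 (1.54 to 3.13) in suprabasal KCs, AD macrophages had 2.7 (1.27 to 6.25), and Ctrl melanocytes had 53 S100a8 UMIs to 1 S100a9 UMI (9.11 to 2132). The melanocyte S100a8 was in 25 of 65 Ctrl cells (75.1 CPM, at most 7 UMIs in a cell) and in 4 of 62 AD cells (53.3 CPM), a log2 ratio of -0.49 (-1.53 to 0.43). Of the Ctrl KC S100a8 UMIs 86 of 245 lay in 1 cell with 4 S100a9 UMIs. Of the Ctrl unassigned S100a9 UMIs 125 of 377 lay in 1 cell with 53 S100a8 UMIs, and 110 lay in another with 0.

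**Figure D4:**
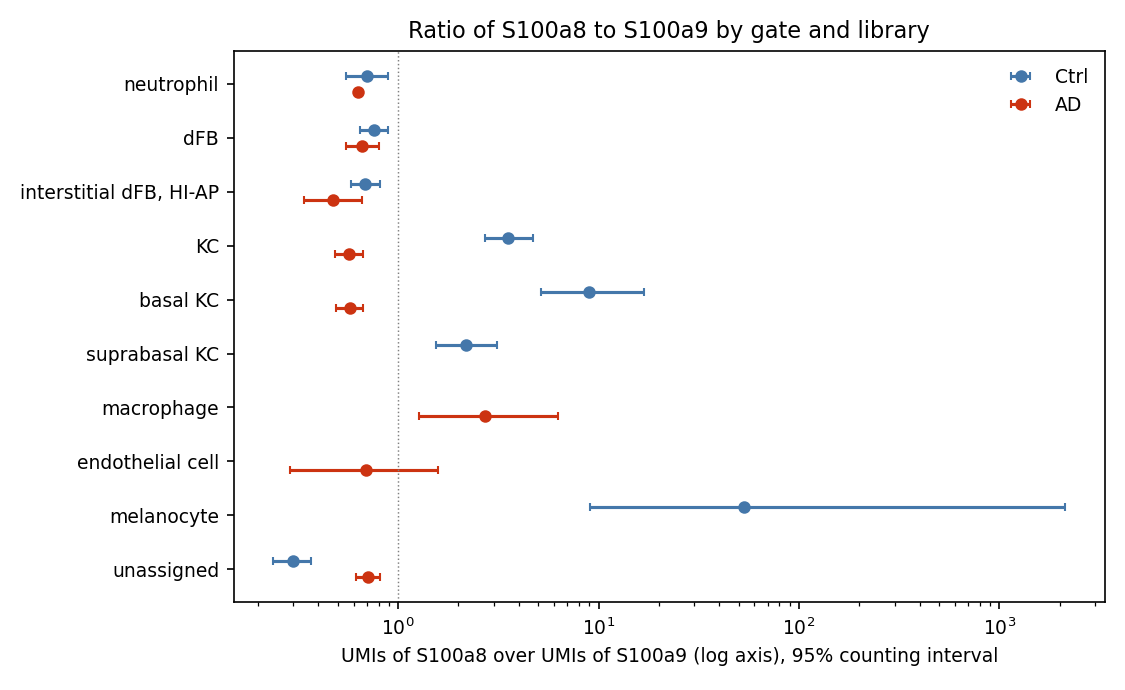
Ratio of S100a8 to S100a9 UMIs (log axis) by gate in the Ctrl and AD libraries, with 95% counting intervals, for gates with enough UMIs of the pair. AD neutrophils (0.632) and AD dFBs (0.663) lie together, while Ctrl KCs (3.55), AD macrophages (2.7) and Ctrl melanocytes (53) lie to the right of them.

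Whether the same cells carried several members was asked within each library after thinning, so that deep cells did not enter more often. In all, 15 of 11031 Ctrl cells (0.136%) and 200 of 7680 AD cells (2.6%) carried at least 2 of the 7 genes, and 62 AD cells carried at least 3. Neutrophils were the type that carried several. Of the 58 AD neutrophils 55 (94.8%) carried at least 2 members and 49 (84.5%, 72.6 to 92.6) at least 3, with 21 cells at 4, 19 at 5 and 2 at 6. Adipocytes came next, with 42 of 86 (48.8%) at 2 or more, of which 40 carried exactly 2, and then basophils with 10 of 49 (20.4%). In endothelial cells 52.5% carried exactly 1 member and 2.07% at least 2. In dFBs 446 of 4738 AD cells (9.41%) carried 1 member, 37 (0.781%) at least 2 and 2 at least 3, against 2 of 5822 Ctrl dFBs with at least 2. Of 370 AD KCs 7 (1.89%) and of 402 AD T cells 0 carried at least 2.

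**Figure D5:**
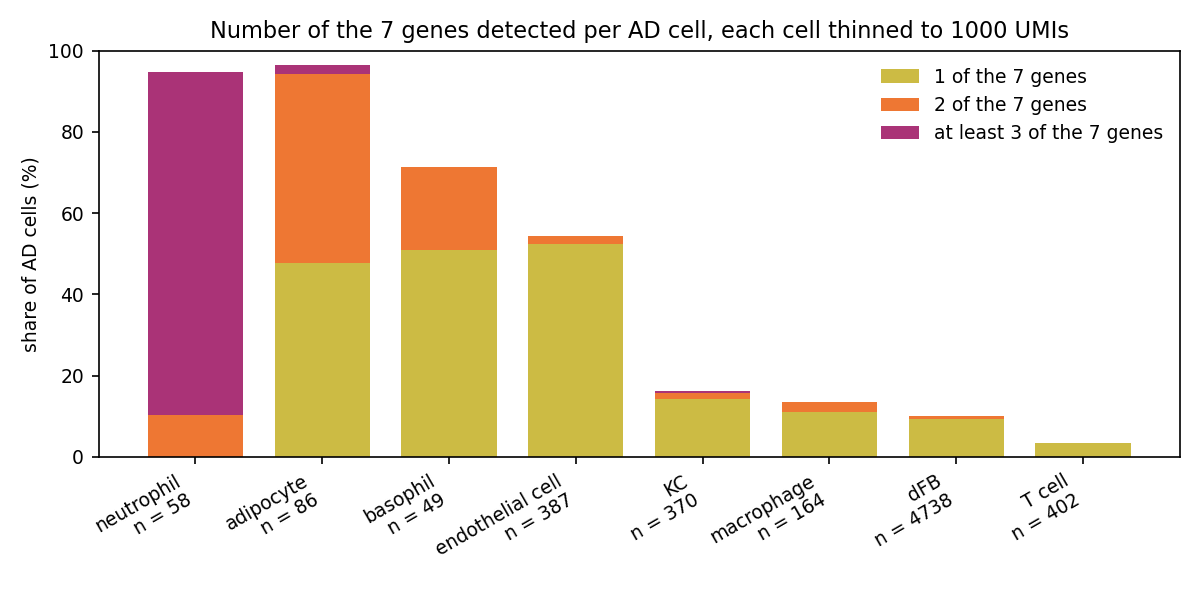
Share (%) of AD cells of 8 gates with 1, 2 or at least 3 of the 7 genes, each cell thinned to 1000 UMIs, with the number of cells under each bar. Neutrophils are the gate in which most cells carry at least 3 (84.5%), and dFBs mostly carry 1 (9.41%) or none.

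Within AD neutrophils, S100a8 and S100a9 went together cell by cell. S100a9 was found in 48 of 51 cells with S100a8 (94.1%, 83.8 to 98.8) and in 1 of 7 without it (14.3%, 0.361 to 57.9). The Spearman correlation of their thinned counts over the 58 cells was 0.91, and that of Lcn2 was 0.67 with S100a8 and 0.64 with S100a9. Hp was in 71.1% of neutrophils with Lcn2 and in 15.4% of those without (intervals 55.7 to 83.6 and 1.92 to 45.5). Slpi did not follow the calprotectin pair, with a correlation of 0.01 with S100a9. The AD neutrophil with most Slpi had 71 Slpi, 2 S100a8 and 0 S100a9 UMIs, whereas that with most S100a9 had 841 S100a9, 650 S100a8, 92 Lcn2 and 7 Slpi UMIs. These correlations are over cells of 1 library, which share depth and free RNA, and are descriptions.

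In AD adipocytes Lcn2 was found in 33 of 83 cells with Hp (39.8%), and their counts had a Spearman correlation of 0.23. Saa3 was in 8 of 86 thinned adipocytes, and its correlation with Hp was -0.24. In AD dFBs Lcn2, Hp and Slpi had larger shares among cells with Saa3 than among cells without when all sub-gates were pooled. Lcn2 was in 13 of 209 dFBs with Saa3 (6.22%, 3.35 to 10.4) and in 2.14% (1.74 to 2.61) of those without. Hp was in 12 of the 209 (5.74%, 3.00 to 9.82) against 2.36% (1.94 to 2.85), and Slpi in 4 (1.91%, 0.524 to 4.83) against 0.309% (0.169 to 0.518). Within the sub-gates the intervals of cells with and without Saa3 overlapped for Lcn2 and Hp, and for Slpi where it was detected. For Lcn2 the shares were 7.9% and 1.49% in interstitial dFBs and 12.8% and 3.77% in peri-follicular and papillary dFBs. They were 4.94% and 2.30% in pre-adipocyte and reticular dFBs, but 2.17% and 2.00% in dFBs of no sub-gate. For Hp they were 5.26% and 1.37%, 7.69% and 2.95%, 7.41% and 4.09%, and 2.17% and 2.19% in the same order. In Areg dFBs 0 of 5 cells with Saa3 had Lcn2 or Hp. For S100a9 the values over all dFBs were 0 of 209 (0 to 1.75%) and 0.927%. All Spearman correlations between members in AD dFBs were at or below 0.06.

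Without thinning, cells with at least 10 UMIs of a member also fell mostly into different types. In AD there were 268 such cells for Lcn2, 188 for Saa3, 163 for Hp, 71 for Slpi, 51 for S100a9, 49 for S100a8 and 3 for Orm1, and in Ctrl 29, 3, 3, 10, 11, 12 and 94. Of the 188 Saa3 cells 161 were dFBs, of the 163 Hp cells 85 were adipocytes, and of the 268 Lcn2 cells 138 were endothelial cells, 40 KCs, 30 adipocytes and 29 neutrophils. All 49 S100a8 cells were also S100a9 cells. Of the Hp cells 27.6% were also Lcn2 cells (16.8% of the Lcn2 cells), whereas 6.38% of the Saa3 cells were Lcn2 cells (4.48% of the Lcn2 cells) and 10.6% were Hp cells (12.3% of the Hp cells). Over the 7 genes, 503 AD cells were high for 1 member, 70 for 2, 30 for 3, 11 for 4, 2 for 5 and 1 for 6, against 139, 5, 3, 1, 0 and 0 Ctrl cells. A few AD cells were high for Saa3, Hp and Lcn2 at once: an unassigned cell with 4 adipocyte and 3 dFB markers held 73, 1127 and 445 UMIs, and a mural cell with 4 dFB markers held 24, 755 and 28.

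Set against all genes, with genes of at least 50 CPM in either library counted and log2((CPM in AD + 1)/(CPM in Ctrl + 1)) of at least 1 or at most -1 as the fold, 9.21% of 3885 dFB genes were higher in AD and 11.7% lower. In dFBs 1 of the 7 members, Saa3, reached 50 CPM, and it was past the fold at 6.80. In KCs 6.47% of 3787 genes were higher and 9.32% lower. There 4 members reached 50 CPM, of which Lcn2 (4.71), Slpi (5.02) and S100a9 (4.64, from 1 cell as above) were past the fold and Orm1 (-0.97) was not. For Orm1 1 AD cell held 124 of the 268 KC UMIs, and the log2 ratio (-0.98 with no CPM added) was -1.82 without the cell of each library with most Orm1 UMIs. It was also beyond -1 with the stricter gate (-1.57), in Leiden clusters (-1.48), as a per-cell mean (-1.54) and over all barcodes (-1.20). The members were chosen on this contrast, so their shares are not read against these backgrounds.

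The gene lists that follow were chosen with earlier results of these data known, so their counts and medians are descriptions and are not read as support. Of genes of the same pathways, 28 other acute phase genes were listed, of which 5 reached 50 CPM in dFBs and 3 were past the fold, all higher in AD. Their median was 1.28 on the same scale, and that of all dFB genes counted was 0.01. Those past the fold were Cp, the copper carrier ceruloplasmin (67.5 to 260.8 CPM), Serpina3n, a serine protease inhibitor (383.1 to 1169 CPM), and Ptx3, a long pentraxin (456.2 to 1109 CPM). In KCs 1 reached 50 CPM, Serpina3n (4.0 to 53.8 CPM). Of 34 other antimicrobial genes, 33 were in the table and 3 were counted in dFBs (median 0.39), with Ang, an antimicrobial ribonuclease, higher (51.6 to 163.0 CPM) and Bst2, an antiviral membrane protein, lower (150.4 to 33.9 CPM). In KCs 4 were counted (median -1.01, against -0.14 over all KC genes counted), with Rnase4 higher (73.4 to 170.2 CPM) and Wfdc21 (70.7 to 1.26 CPM) and Pla2g2f (121.8 to 55.2 CPM) lower. Wfdc21 belongs to the same whey acidic protein domain family as Slpi, and its KC change was in the opposite direction to that of Slpi. Suprabasal cells were 365 of 1999 Ctrl KCs and 8 of 404 AD KCs, and the part of that share in these KC values was not tested.

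A further list held 26 genes that act upstream of acute phase genes. In dFBs 19 were counted, 11 were higher in AD and 0 lower (median 1.14), where 9.21% of all dFB genes counted were higher and 11.7% lower. The 8 with the largest ratios were Socs3, the feedback inhibitor of STAT3 signaling (502.2 to 2622 CPM), Cebpd (727.2 to 2711 CPM) and Cebpb (692.4 to 1896 CPM), the C/EBP factors, Il6 (197.2 to 711.3 CPM) and Lif (16.2 to 55.7 CPM), cytokines of the IL-6 family, and the receptors Osmr (69.3 to 212.2 CPM), Il1r1 (94.0 to 213.9 CPM) and Lifr (44.8 to 101.7 CPM). In KCs 13 were counted, 7 were higher and 0 lower (median 1.11), where 6.47% of all KC genes counted were higher and 9.32% lower. The KC genes were led by Cebpd (70.7 to 659.8 CPM), Socs3 (107.1 to 716.8 CPM) and Osmr (23.2 to 115.9 CPM). Nfkbiz, a coactivator of NF-kB target genes, followed Lifr (27.8 to 89.2 CPM) in KCs with 256.4 and 634.4 CPM, and Nfkbia (1281 to 2981 CPM) and Stat3 (146.5 to 316.8 CPM) were also higher.

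Among 17 receptors and partners of the members, 5 were counted in dFBs, 2 higher and 2 lower (median 0.62). Hmox1, which degrades heme (55.6 to 148.1 CPM), and Tlr4, a receptor for calprotectin (26.4 to 60.3 CPM), were higher, and Anxa2 (592.7 to 121.3 CPM) and Bsg, another S100a9 receptor (236.8 to 104.3 CPM), were lower. In KCs 3 were counted and 0 were past the fold (median 0.39). Of the 13 other S100 genes, 6 were counted in dFBs, where 0 were higher and S100a4 (682.6 to 209.2 CPM) and S100a16 (159.9 to 43.7 CPM) were lower (median -0.84), and in KCs 2 of 7 counted were higher, S100a6 (799.8 to 4056 CPM) and S100a10 (390.4 to 809.5 CPM), with a median of 0.70.

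Within AD dFBs, the 209 cells with a Saa3 UMI after thinning were set beside the 4529 without. The sub-gates differed between them, since 38 of the 209 and 1750 of the 4529 were interstitial dFBs, and their part in these values was not tested. Of the list genes with at least 50 UMIs in these cells (49), the interval lay above 0 for 13 and below 0 for 8. The share over all genes was not computed for these cells, so the counts are not read as a result about the lists. Saa1, another serum amyloid A, was at 110 CPM in the first and 14.3 CPM in the second, a log2 ratio of 2.94 (2.19 to 3.64), although reads of these related genes could be partly shared. Serpina3n was at 2191 and 869.3 CPM (1.33, 1.19 to 1.47) and Il1rap, the accessory chain of the interleukin-1 receptor, at 119.6 and 59.0 CPM (1.02, 0.37 to 1.61). Il1r1 was at 291.9 and 187.9 CPM (0.64, 0.24 to 1.01) and Lbp, which binds lipopolysaccharide, at 330.1 and 239.3 CPM (0.46, 0.09 to 0.82). These genes were picked after their values were seen. The interval also lay above 0 for Wfdc17 (2.65), Crp (1.82), S100a1 (1.68), Bst2 (1.10), Trf (0.97), Lrp1 (0.49), Nfkbia (0.34) and Rnase4 (0.32). Socs3 (2325 and 2712 CPM, -0.22) and Cebpd (2526 and 2830 CPM, -0.16) had lower values in cells with Saa3. So had Ptx3 (-0.25, -0.46 to -0.06), Il6ra (-0.81, -1.51 to -0.19), Nfkb1 (-0.50, -0.86 to -0.16), S100a4 (90.9 and 194.5 CPM, -1.10), S100a10 (-0.59) and S100a6 (-0.42). Socs3 and Cebpd, which had the largest ratios of their list between the libraries, therefore had ratios under 0 between these dFBs. Cells with Lcn2 differed less in Serpina3n, at 1082 and 923.9 CPM (0.23, -0.05 to 0.49).

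The genes whose levels were most like those of each member were ranked by Pearson correlation of log2(CPM + 1) over 22 classes of cell type and library with at least 30 cells, among 5527 genes. They are a description over classes that share 2 libraries. Saa3 was most like Slc25a28 (0.80), Cxcl13 (0.78) and Hp (0.77), and Cxcl13 peaked in AD dFBs at 2785 CPM. Hp was most like Cfd (0.87), Map1lc3b (0.86) and Ypel5 (0.81), all highest in AD adipocytes, where Cfd reached 22267 CPM. Lcn2 was most like Lrg1 (0.86), an acute phase glycoprotein, then Map1lc3b (0.76) and Chac1 (0.75). Slpi was most like Cxcr2 (0.88), Acod1 (0.87) and Retnlg (0.87), of which Cxcr2 and Retnlg are markers of the neutrophil gate and Acod1 was highest in AD basophils (3113 CPM). S100a8 and S100a9 were most like each other (0.92), and then like Stfa2 (0.84 and 0.89), a stefin, with Stfa2l1 (0.83) for S100a8 and Cstdc4 (0.89) for S100a9. Orm1 was most like Trp63 (0.88), Cib2 (0.84) and Sbsn (0.81), of which Trp63 and Sbsn are markers used for KCs and suprabasal KCs. Between members, Lcn2 and Hp had 0.74, Slpi and S100a9 0.69, and Orm1 had at most 0.35 with any other.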

How the data were processed

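Single-cell RNA-seq of dorsal skin was analysed in 1 Ctrl and 1 AD library. Dead cells were removed and 10x 3′ v3.1 libraries were made after enzymatic digestion. The authors deposited raw UMI counts per gene and barcode, without normalization; the submitters' processing notes name Cell Ranger 3.1.0, Seurat 5.0 and mm10, and the matrix header names Cell Ranger 5.0.0. Members and lists were chosen with earlier results of these data known. The filter of the methods (200 to 6000 genes, mitochondrial share up to 10%) left 11399 Ctrl and 8179 AD cells.

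A cell was assigned to 1 of 14 types where at least 3 of 8 markers had a UMI and led every other type by at least 2. Sub-gates of dFBs and KCs needed 2 markers and a lead of 1. UMIs were summed per gate and library. CPM intervals are exact Poisson, shares exact Clopper-Pearson and log2 ratios exact conditional binomial (95%). Where 1 library had 0 UMIs, 3 counts over the gate set the bound, which does not allow for UMIs clumped in 1 cell. No test over cells was run, because each group was 1 library. Co-detection used cells thinned to 1000 UMIs by a seeded draw, leaving out shallower cells. The genes named were the 7 members, list genes past the fold in dFBs or KCs (up to 8 per list by size of ratio), and the 3 genes most like each member. The list genes given for dFBs with and without Saa3 were chosen after their values were seen. Simulated counts were made from the Ctrl dFBs over 3416 genes. In them the fold rule recovered 200 of 200 changed genes, with 0 unchanged genes past the fold. Recovery was not tested for genes with most UMIs in a few cells, or where the makeup of the cells differs between libraries. Alternatives were other gates, Leiden clusters, all barcodes, per-cell means, other thresholds and other thinning depths. The tools were Python 3.11.15, scipy 1.17.1 and scanpy 1.11.5.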

Additional observations from a re-analysis of the deposited data

Results flagged for a closer look

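Orm1 moved in opposite directions in a pair of cell types. In basal KCs it was higher in AD, with a log2 ratio of 1.23, and in dFBs it was lower in AD, with a log2 ratio of -4.66. The difference between these ratios was not tested, since each group was 1 library. In Ctrl dFBs 100 of the 297 Orm1 UMIs lay in 1 cell with 5 dFB and 3 KC markers. The shares of basal KCs with Orm1 after thinning, 1.01% in Ctrl and 1.19% in AD, had overlapping intervals.

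The cells that no gate claimed also carried 6 of the members in AD above the Ctrl level. Their AD levels were 44.8 CPM for Saa3, 1657 CPM for Hp, 258.2 CPM for Lcn2, 68.8 CPM for Slpi, 62.7 CPM for S100a8 and 88.7 CPM for S100a9, against 0.270, 17.5, 9.28, 6.48, 10.1 and 34.0 CPM in Ctrl. Orm1 went the other way in them, with 130.1 CPM in the Ctrl library against 2.30 CPM. Of the unassigned AD UMIs, 5 cells held 50% of the Hp counts, 4 of the Lcn2 counts and 1 cell each of the S100a8 and S100a9 counts. The cell that led S100a8 and S100a9 had 7 dFB and 7 neutrophil markers, and the cell that led Hp had 5 adipocyte and 4 dFB markers.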

How the results depend on the processing

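No paired analysis was possible because each group was 1 library, and for the same reason leaving out a replicate gave no value. Of 90 values compared with the main one, 46 stayed within counting error or, for counts of genes, within 1.5 times the main count, 40 moved further and 3 KC ratios of S100a8 and 1 of S100a9 changed sign. The planned removal of called doublets was not run, since the caller marked 395 Ctrl and 0 AD cells. Leaving out the 5% of cells with the highest doublet score per library replaced it, and this, the fit without the cell with most UMIs and the 10-UMI threshold were chosen after seeing the data. The endothelial Lcn2 ratio stayed within its counting error under every alternative run. The causes of the shifts were not tested.

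The direction of the KC S100a8 and S100a9 ratios (2.5 and 5.14) was not stable. S100a8 was -0.79 with the stricter gate (4 markers, lead 3), -0.58 in Leiden clusters and -0.67 without the highest doublet scores, and S100a9 was 1.45, -0.43 and 1.47. Without the top cell they were 0.015 and 1.76, over all barcodes 2.20 and 4.52, and as a mean of each cell's own CPM 3.17 and 5.81. The dFB ratios of S100a8 and S100a9 (-0.00 and 0.20) became 2.82 and 5.06 with the stricter gate, 2.61 and 5.56 in Leiden clusters and 2.52 and 4.72 without the top cell, and S100a9 was 0.51 as a per-cell mean.

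Other ratios kept their sign. As a mean of each cell's own CPM, dFB Saa3 was 6.67, Hp 5.64 and Lcn2 3.95, and KC Lcn2 was 4.26, Slpi 4.93 and Orm1 -1.54. Over all barcodes dFB Lcn2 was 5.90, KC Lcn2 5.26, Slpi 6.09 and Orm1 -1.20. With the stricter gate dFB Lcn2 was 5.27 and KC Orm1 -1.57. In Leiden clusters, several of which held cells of almost 1 library alone, dFB Lcn2 was 5.12, KC Slpi 5.04 and Orm1 -1.48. Without the top cell dFB Saa3 was 7.94, Lcn2 5.20 and KC Orm1 -1.82. The share of AD neutrophils with at least 3 members was 95.8% with the stricter gate and 60.3% at 10 UMIs or more, and that of AD dFBs with at least 2 members was 1.80% after thinning to 2000 UMIs and 0.310% at 10 UMIs or more. With genes of at least 20 CPM counted, 849 dFB genes were lower, and 422 KC genes were higher and 710 lower. Depth limits the gates with few cells, above all the 5 Ctrl neutrophils, the 9 Ctrl basophils and the 8 AD suprabasal KCs.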
